A study of Mus musculus with 13 samples.

Results

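The CXC chemokine genes of mouse chromosome 5 were examined in ChIP-seq peak lists of 4T1 cells, a mammary carcinoma line from a BALB/cJ mouse. The genes are Cxcl1, Cxcl2, Cxcl3, Cxcl5, Cxcl15, Pf4, Ppbp, Cxcl9, Cxcl10 and Cxcl11, chosen by symbol from 6 peak lists, and they are 10 of the 18571 genes with an entry in any list. Cxcl15 stands in the lists under its older symbol Il8 and was matched by transcript accession, so 9 of the 10 were found by symbol alone. The control cells (sg-Ctrl) carry a non-targeting guide RNA. The Nup210 knockout cells (KO-N13) carry a guide RNA against Nup210, a nuclear pore membrane protein, and are 1 clone grown from a single cell after transient Cas9 delivery, so that the effect of the knockout and of the clone cannot be told apart. Libraries of both cell types were made for H3K4me3 and H3K27me3, while NUP210 and the proteins seen by an antibody to several pore components (NPC) have a library of sg-Ctrl cells only. Each condition has 1 library, so no test over replicates was possible, a call stands for a change of at least 2-fold, and the 95% intervals given cover counting error only.

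CXC chemokines are small secreted proteins that attract leukocytes. Those that carry a Glu-Leu-Arg (ELR) motif before the CXC cysteines, here Cxcl1, Cxcl2, Cxcl3, Cxcl5, Cxcl15 and Ppbp, act through the receptor Cxcr2 and recruit neutrophils. Pf4, or platelet factor, lacks that motif and is stored with the Ppbp product in platelet granules. Cxcl9, Cxcl10 and Cxcl11 are induced by interferon and attract T cells through Cxcr3. H3K4me3 marks active or poised promoters, and H3K27me3 is the repressive mark of Polycomb complexes. The genes fall into 2 blocks of chromosome 5. The ELR ligand genes and Pf4 lie within 147 kb, from 90759298 to 90905938, in the order Cxcl5, Ppbp, Pf4, Cxcl3, Cxcl15, Cxcl1, Cxcl2. The interferon-induced genes lie within 42.0 kb, from 92321331 to 92363296, and 1415 kb separate the 2 blocks. Cxcl11 is annotated as a transcribed pseudogene by RefSeq, and the other 9 as protein-coding. That annotation is of the reference strain, and the state of Cxcl11 in the BALB/cJ cells used here was not examined. Gene positions are those of RefSeq GRCm38.p6, whose transcript starts or ends matched those of the NUP210 list within 50 bp for 84.9% of 8150 transcripts.

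Promoter sequence of the RefSeq reference was found for 8 of the 10 genes. The 250 bases before the start of Cxcl1, Cxcl2 and Cxcl3 are shown because these closely related ligand genes share a kB motif, the site recognised by NF-kB. Those of Cxcl10 are shown for an interferon response element, and those of Pf4 as a gene of the cluster with no listed H3K4me3. All run 5′ to 3′ on the gene's strand and end at the base before the start, and capitals mark matches to GGGAATTTCC, to TATAAA or to GAAA, any 2 bases and GAAA (GRCm38.p6, plus strand chr5:90890995-90891244 for Cxcl1, chr5:90903649-90903898 for Cxcl2, chr5:90785851-90786100 for Cxcl3 and chr5:90772185-90772434 for Pf4, minus strand chr5:92348890-92349139 for Cxcl10).
Cxcl1: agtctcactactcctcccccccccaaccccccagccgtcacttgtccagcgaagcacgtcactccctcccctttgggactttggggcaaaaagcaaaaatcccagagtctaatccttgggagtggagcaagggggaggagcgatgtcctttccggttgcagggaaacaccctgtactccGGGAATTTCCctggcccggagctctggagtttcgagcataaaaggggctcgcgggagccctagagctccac
Cxcl2: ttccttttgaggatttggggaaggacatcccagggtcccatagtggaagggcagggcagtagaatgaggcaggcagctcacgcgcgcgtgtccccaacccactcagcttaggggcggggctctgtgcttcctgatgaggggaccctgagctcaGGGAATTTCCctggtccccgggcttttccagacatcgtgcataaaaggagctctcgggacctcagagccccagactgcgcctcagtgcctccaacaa
Cxcl3: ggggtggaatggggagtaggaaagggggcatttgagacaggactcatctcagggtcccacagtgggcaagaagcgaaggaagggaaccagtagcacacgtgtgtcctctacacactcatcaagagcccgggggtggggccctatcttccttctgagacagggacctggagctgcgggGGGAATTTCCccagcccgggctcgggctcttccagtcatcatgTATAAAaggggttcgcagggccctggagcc
Cxcl10: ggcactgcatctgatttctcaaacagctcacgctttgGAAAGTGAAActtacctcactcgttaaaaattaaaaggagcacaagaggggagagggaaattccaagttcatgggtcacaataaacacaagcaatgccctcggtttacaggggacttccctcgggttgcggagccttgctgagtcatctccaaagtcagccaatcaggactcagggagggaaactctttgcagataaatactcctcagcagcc
Pf4: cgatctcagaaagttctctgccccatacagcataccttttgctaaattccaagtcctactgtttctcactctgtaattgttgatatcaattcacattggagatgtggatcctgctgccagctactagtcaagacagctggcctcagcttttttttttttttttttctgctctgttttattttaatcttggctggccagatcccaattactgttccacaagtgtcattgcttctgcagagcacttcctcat
The letters GGGAATTTCC begin 71 bases before the start of Cxcl1, 97 before that of Cxcl2 and 73 before that of Cxcl3. They were in 3 of the 8 promoters of the cluster and in 28 of all 32851 RefSeq promoter windows of the same length (0.0852%), searched on both strands. This exact form was taken from the promoters themselves, as the kB match found in more of them than any other on the gene's strand. The 3 genes are paralogs, so their sequences are not independent. With both strands counted, GGGAAATTCC was in more promoters. It was on the opposite strand in those of Cxcl1, Cxcl2 and Cxcl3, and on the gene's strand in that of Cxcl10, 159 bases before the start. Its share of all promoters was not counted, so the kB site is not particular to the 3 genes. The broader kB form (GGG, any 5 bases, CC), which contains it, was in 5 of the 8 promoters against 45.8% of all, namely in those of Cxcl1, Cxcl2, Cxcl3, Cxcl9 and Cxcl10. GAAA, any 2 bases and GAAA, a form of the interferon-stimulated response element, was in the Cxcl10 promoter alone, 213 bases before the start, against 2.98% of all. TATAAA was in 4 of the 8, those of Ppbp, Cxcl3, Cxcl15 and Cxcl9, against 12.4% of all. The promoters of Cxcl1, Cxcl2 and Cxcl3 hold 59.2%, 60% and 60% G and C with 10, 9 and 7 CpG dinucleotides, where the median of all windows is 52.4% and 6. That of Pf4 holds 41.2% and 1 CpG, and that of Cxcl10 48% and 5. The sequence is that of the reference strain, and 4T1 cells come from BALB/cJ.

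Reads were set on the scale of library size recovered from the authors' folds over IgG, which put the depth of the KO libraries at 1.27 times that of sg-Ctrl for H3K4me3 and 3.16 times for H3K27me3, and levels are given as scaled reads per kb of peak. The median fold over IgG of all H3K4me3 peaks was 49.96 in sg-Ctrl and 34.6 in KO. As a check of the cell type, Krt8, Krt18, Epcam and Cdh1, genes of epithelial cells, had an H3K4me3 peak in both lists, Ptprc and Cd3e of immune cells had none, and Pecam1 of endothelial cells was in no list. At the start of Nup210 itself 885 H3K4me3 reads were listed in sg-Ctrl and 913 in KO, at a log2 ratio of -0.41 (-0.54 to -0.27). That peak lies outside the edited exon, so it checks nothing about the knockout.

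An H3K4me3 peak within 4 kb of the gene start was listed for 7 of the 10 genes in sg-Ctrl cells and for 5 in KO cells, where 67.1% and 67.0% of the 18571 genes with an entry in any list had one. Pf4, Cxcl15 and Cxcl11 had none in either. Cxcl3 and Cxcl9 had a peak in sg-Ctrl alone, 2 of 7, against 2.05% of the 12461 genes with a peak in sg-Ctrl. The Cxcl9 entry is the peak of Art3, which was still listed in KO but 122 bp outside the Cxcl9 window, so it is not a lost peak. A peak that covered the start itself was listed for 5 genes in sg-Ctrl, Cxcl5, Cxcl1, Cxcl2, Cxcl3 and Cxcl10, and for 4 in KO, Cxcl3 being the gene without one, against 1.72% of 11539 genes. Fewer cells with the mark and less of the mark per cell cannot be told apart in these libraries.

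**Figure D1:**
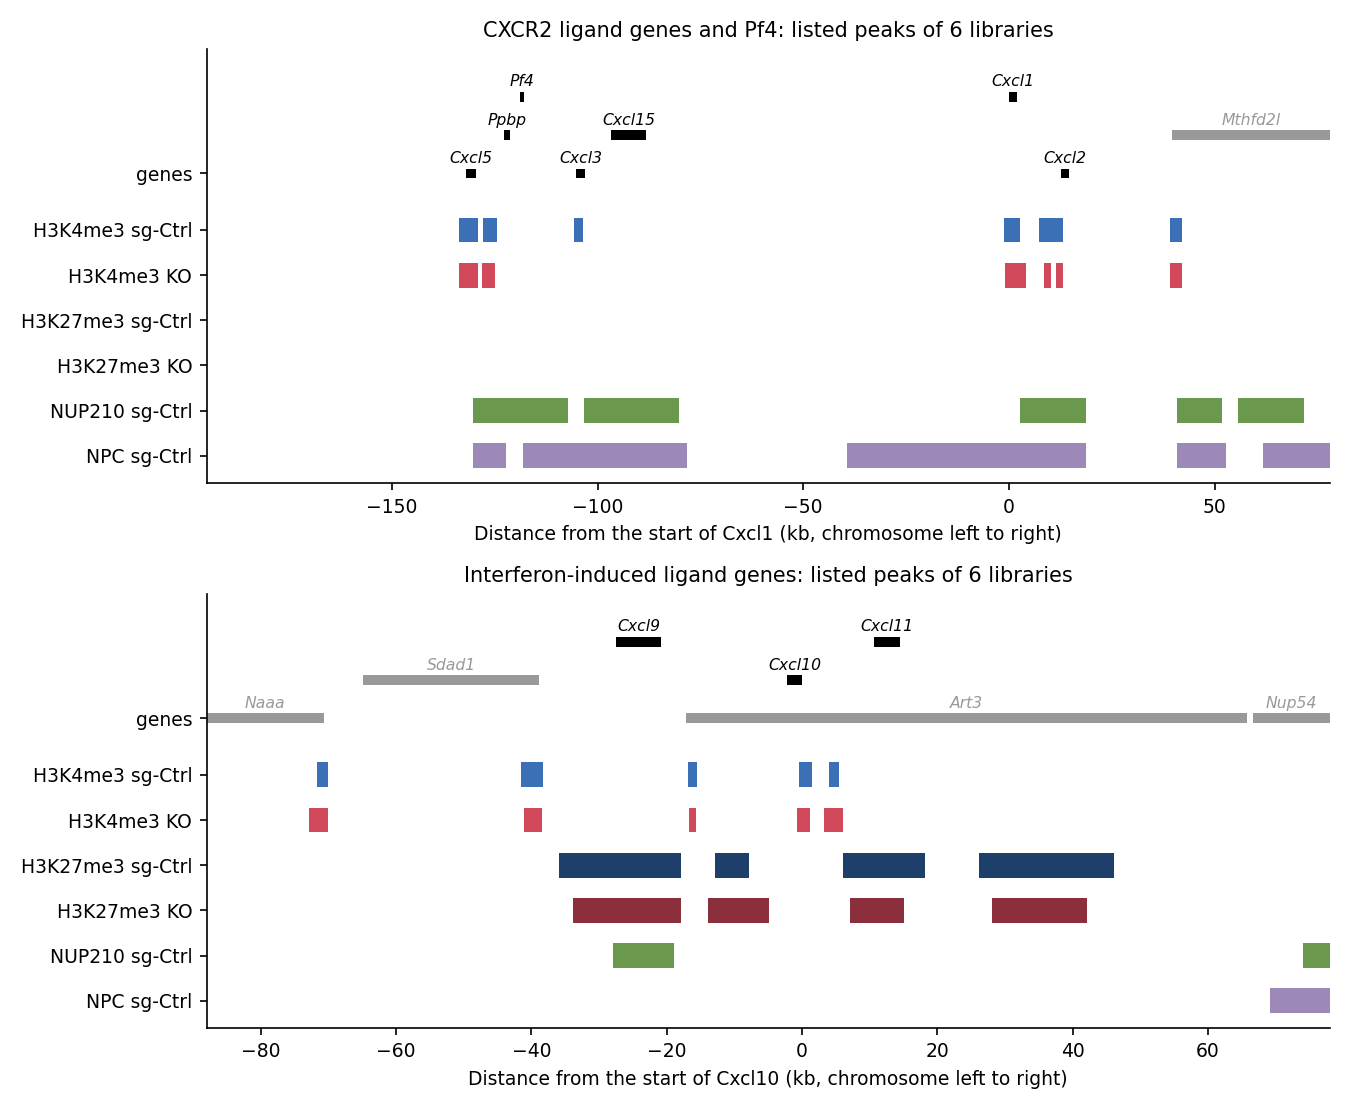
Peaks of the 6 lists around the ELR ligand genes (top) and the interferon-induced genes (bottom), by distance in kb from the start of Cxcl1 or of Cxcl10. Bars in the upper rows are genes (black, members of the cluster, grey, others) and bars below are listed peaks of 1 library each. H3K27me3 rows are empty in the upper map, and the H3K4me3 peak of Cxcl3, near -104 kb, is in the sg-Ctrl row alone.

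Among the ELR ligand genes, Cxcl5, whose product attracts neutrophils at epithelial surfaces, had the highest H3K4me3. Its peak covers the gene from end to end, had the same borders in both lists (90757601 to 90762200) and contained 5389 reads (5246 to 5535) in the sg-Ctrl library against 2615 (2516 to 2717) in the KO library, over 119 IgG reads in each. In sg-Ctrl the level was 1104 scaled reads per kb, above that of 94.8% of genes with a peak, and 422 in KO, above that of 59.7%. The log2 ratio of KO to sg-Ctrl was -1.39 (-1.46 to -1.32), and since the borders are shared it does not depend on how the peak was drawn.

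Cxcl1 had a peak over its whole length with 2435 reads in sg-Ctrl cells against 1550 in KO cells. The KO peak was wider, 5.2 kb against 4 kb, so the log2 ratio was -1.38 (-1.47 to -1.28) in scaled reads per kb, from 574 to 221, and -0.997 (-1.09 to -0.90) in scaled reads alone. The Cxcl1 level stood above that of 54.9% of genes in sg-Ctrl and of 17.4% in KO.

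The start of Cxcl2, 12.7 kb further along the chromosome, lay in a peak of 5.8 kb with 1261 reads (1192 to 1333) in sg-Ctrl. In KO the same stretch was listed as 2 peaks of 1.8 kb, one on the start with 248 reads (218 to 281) and one 2.30 kb upstream with 229 reads (200 to 261). At the start the level went from 205 to 102 scaled reads per kb, a log2 ratio of -1.003 (-1.21 to -0.81). Both KO peaks together held 477 reads, and on scaled reads alone the log2 ratio was -1.75 (-1.90 to -1.59). The broken peak therefore makes the Cxcl2 value depend on the measure more than that of Cxcl5.

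Cxcl3 had a peak on its start in sg-Ctrl (90785401 to 90787600) with 275 reads (243 to 309) over 10 IgG reads, a level of 118 scaled reads per kb (104 to 133). That is the lowest of the 5 starts with a peak, above the level of 5.69% of genes, and the level at Cxcl5 was 9.37 times as high. No peak was listed for it in KO, and since the lists hold no reads outside peaks, its KO level is not known. The KO list did hold peaks of lower level, such as that upstream of Ppbp, at 30.9% of the sg-Ctrl level of Cxcl3.

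For Ppbp, a chemokine precursor of platelets, the listed peak did not reach the gene start. It lay 1.72 kb upstream in sg-Ctrl and 2.12 kb upstream in KO, between Cxcl5 and Ppbp, and the KO peak was listed for Cxcl5 as well. It had 288 reads (256 to 323) in sg-Ctrl cells and 157 (133 to 184) in KO cells over 57 and 62 IgG reads, with levels of 79.8 and 36.4 scaled reads per kb and a log2 ratio of -1.13 (-1.42 to -0.85). Its folds over IgG of 4.76 and 1.88 are low beside those of Cxcl5, at 42.7 and 16.3.

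Of the interferon-induced genes, Cxcl10 had 2 peaks in each list. The peak on its start had 565 reads (519 to 614) in the sg-Ctrl and 452 (411 to 496) in the KO library, with levels of 266 and 186 scaled reads per kb and a log2 ratio of -0.52 (-0.70 to -0.33). The stronger peak lay upstream, 3.91 kb from the start in sg-Ctrl (92352801 to 92354400) and 3.31 kb in KO (92352201 to 92355000), inside the span of Art3, an ADP-ribosyltransferase gene. There the 1230 reads of sg-Ctrl and the 1221 of KO gave a log2 ratio of -0.36 (-0.47 to -0.24) in scaled reads. Because the KO peak is 2.8 kb wide and the sg-Ctrl peak 1.6 kb, the log2 ratio per kb was -1.16 (-1.28 to -1.05), from 725 to 324. So a value past 2-fold for Cxcl10 came from the upstream peak and its width, and the start itself was lower by less than 2-fold.

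The entry for Cxcl9 came from a peak 3.92 kb upstream of its start (92332001 to 92333400, 701 reads), which is also the peak of Art3 and begins 160 bp past the Art3 start. It reached 79 bp into the window of Cxcl9. In KO the peak at the same place (92332201 to 92333200, 218 reads) began 122 bp outside that window, which is why Cxcl9 has no KO entry. At this site the log2 ratio was -2.03 (-2.26 to -1.81) in scaled reads and -1.54 per kb, from 472 to 162. No peak covered the start of Cxcl9 or of Cxcl11 in either list.

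Over the 5 starts covered in sg-Ctrl the order of levels was Cxcl5, Cxcl1, Cxcl10, Cxcl2 and Cxcl3, and in KO it was Cxcl5, Cxcl1, Cxcl10 and Cxcl2. Counting intervals of neighbours in these orders did not overlap: for Cxcl10 and Cxcl2 they were 245 to 289 and 194 to 217 in sg-Ctrl, in scaled reads per kb, and for Cxcl1 and Cxcl10 they were 210 to 232 and 170 to 204 in KO. How reads in near-identical stretches of these paralogs were mapped is not given in the sources used here.

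**Figure D2:**
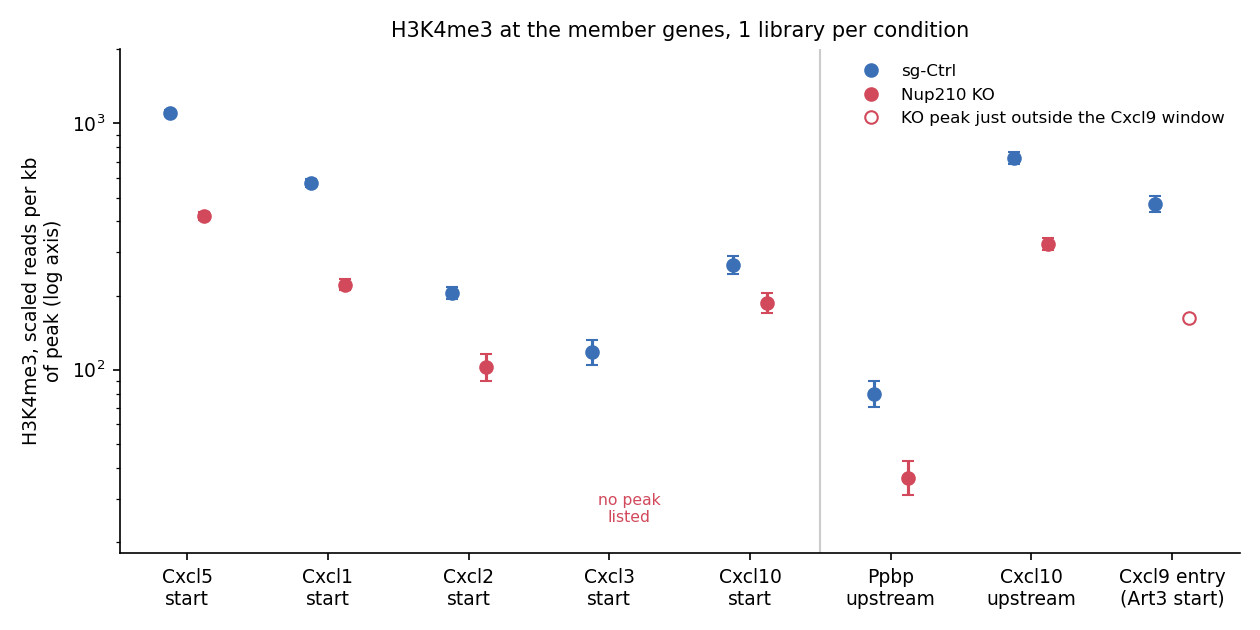
H3K4me3 in scaled reads per kb of peak (log axis) at the starts of 5 member genes (left of the line) and at 3 sites away from a start (right), for sg-Ctrl (blue) and Nup210 KO (red), 1 library each. Bars are exact 95% Poisson intervals, and some are smaller than the points. The KO point lies below the sg-Ctrl point at each site with both, for example 422 against 1104 at Cxcl5 and 186 against 266 at the Cxcl10 start.

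All 5 genes with a peak in both lists, Cxcl5, Cxcl1, Cxcl10, Ppbp and Cxcl2, were at least 2-fold lower in KO by the level of their highest peak, with log2 ratios from -1.39 to -1.003 and a median of -1.16. Of all 12205 genes with a peak in both, 9.66% passed the 2-fold line downwards and 0.524% upwards. The paper names Cxcl1 and Cxcl3 among genes with less promoter H3K4me3 and lower expression after Nup210 depletion. The members were chosen with earlier results of these data known, so their count describes them and is not a test. The Cxcl2 ratio of 0.499 lies just past the line. Of the 759 such genes of chromosome 5, 20.0% were 2-fold lower. Counting only peaks on the start, 3 of 4 genes were 2-fold lower, with Cxcl10 the exception, against 9.53% of 11340 genes and 19.3% of 711 genes of chromosome 5.

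These ratios stood on a general shift. The median log2 ratio was -0.50 over all genes, with 88.7% below 0, and -0.72 over chromosome 5, with 96.0% below 0. The H3K27me3 ratios moved the same way, with medians of -0.11 over all peaks and -0.26 over chromosome 5, and the part of these shifts in the members' values was not tested. Scaled by the reads of shared peaks, which raises each log2 ratio by 0.42, the members were at -0.97 for Cxcl5, -0.95 for Cxcl1, -0.74 for Cxcl10, -0.71 for Ppbp and -0.58 for Cxcl2, so that 0 of 5 were 2-fold lower, against 1.25% of all genes. Relative to the chromosome 5 median they were at -0.67, -0.65, -0.44, -0.41 and -0.28, again with 0 past 2-fold, against 0.426%, and relative to the median of all genes 0 were past it, against 0.926%. For the highest peak of each gene the direction was the same on each of these scales. The peak on the Cxcl10 start was at -0.09 scaled by shared peaks and at -0.02 relative to the median of all genes. Relative to the chromosome 5 median it was at 0.21, the other way. By total scaled reads of all the peaks of a gene, 3 were 2-fold lower (Cxcl5, Ppbp and Cxcl2), against 7.28% of all genes, by the total of peaks on the start 2 of 4 (Cxcl5 and Cxcl2), against 7.22%, and by fold over IgG 2 (Cxcl5 and Ppbp), against 17.6%. For Cxcl5, 2.77% of the chromosome 5 genes had a lower ratio, for Cxcl1 3.56%, for Cxcl10 9.88%, for Ppbp 11.99% and for Cxcl2 19.9%. The ratio of the Cxcl10 start peak had 69.5% of chromosome 5 genes below it, among ratios of peaks on starts.

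**Figure D3:**
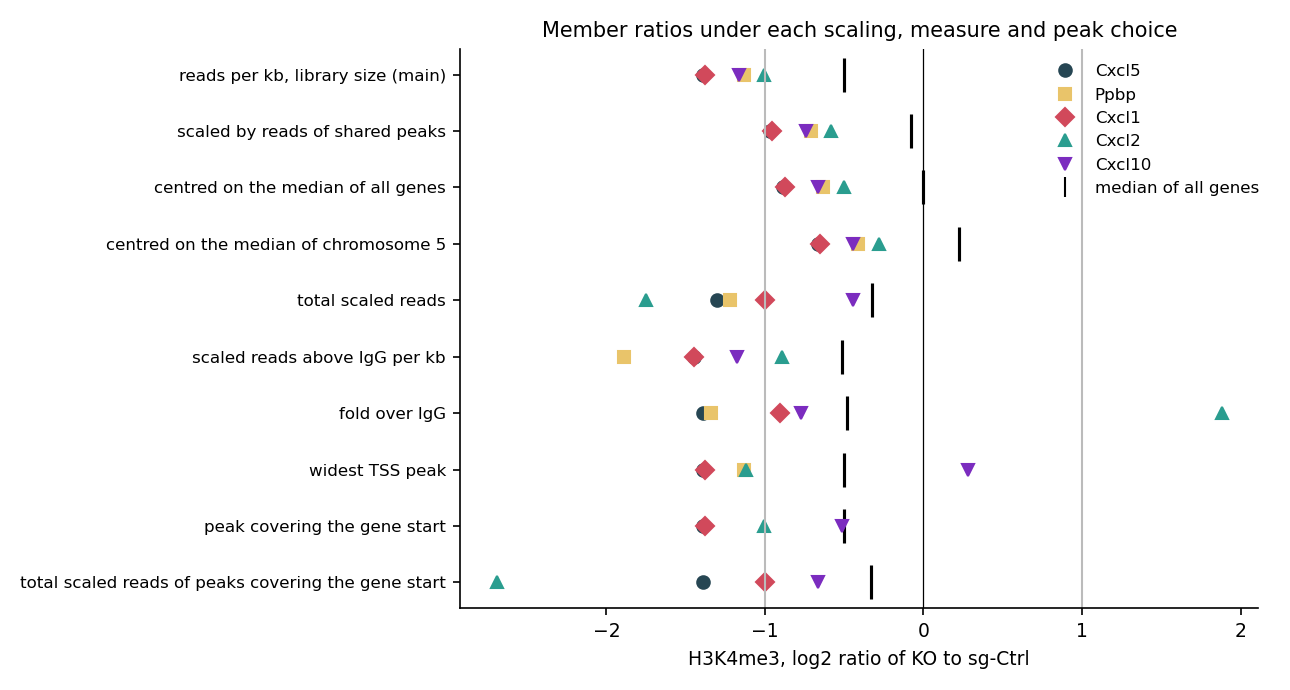
Log2 ratio of KO to sg-Ctrl for the 5 members with a peak in both lists (symbols) and the median of all genes (black bars), under each scaling, measure and choice of peak, with grey lines at 2-fold. The last 2 rows lack Ppbp, whose peaks miss its start. The members lie left of 0 in each row, except Cxcl2 by fold over IgG (1.88) and Cxcl10 by its widest peak (0.28).

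The genes beside the cluster, those with a start in a block or within 500 kb of it, were compared in the same way. Near the ELR ligand genes, 6 genes had a peak in both lists, with log2 ratios from -1.01 to -0.71 and a median of -0.84. Rassf6, a Ras association domain gene and the nearest to the left of Cxcl5, was at -1.01 (-1.12 to -0.91), and Ankrd17 and Gm9958, which share a peak, at -0.84. To the right of Cxcl2, Mthfd2l, a mitochondrial folate enzyme gene, was at -0.96 (-1.02 to -0.89), and Areg, which encodes the EGF receptor ligand amphiregulin, at -0.71 (-0.80 to -0.62). Gm19619 had a peak of 63 reads in sg-Ctrl alone. The ratios of Cxcl5 and Cxcl1 lay below those of all 6 neighbours, with counting intervals that did not overlap that of Rassf6, while those of Cxcl2 and Ppbp overlapped it. In scaled reads alone, without the peak width, Rassf6 was at -1.09 and Areg at -1.26, both below Cxcl1 at -0.997, while Cxcl5 at -1.39 stayed below both, and Btc, at -0.74 per kb, was at 0.0015. The 6 genes had a median of -0.92 on that measure, with 2 past 2-fold.

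Near the interferon-induced genes the neighbours spread more widely. The 14 genes with a peak in both lists ran from -2.24 to 0.06 with a median of -0.73, and 6 were 2-fold lower. Among the 6 were Art3, by the same peak that gave the Cxcl9 entry, and Rchy1 and Thap6, which share a peak. Sdad1, next to Cxcl9, was at -0.27 (-0.37 to -0.18), Naaa, an acid amidase gene, at -0.95 (-1.11 to -0.78), and U90926 at -1.23 (-1.60 to -0.86). On the other side Nup54, which encodes a nucleoporin of the central channel, was at -0.51 (-0.57 to -0.44), Scarb2 at -0.42 (-0.53 to -0.30) and Stbd1 at 0.06 (-0.12 to 0.24). In scaled reads alone Naaa was at -0.14, Nup54 at -0.90 and Sdad1 at -0.57, and the 14 genes had a median of -0.73, with 5 past 2-fold. The lowest per kb was Odaph at -2.24 (-2.43 to -2.05), named after its value was seen. Over both blocks 7 of 20 neighbours (35.0%) were 2-fold lower, from 18 distinct peaks, and 19 were below 0.

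**Figure D4:**
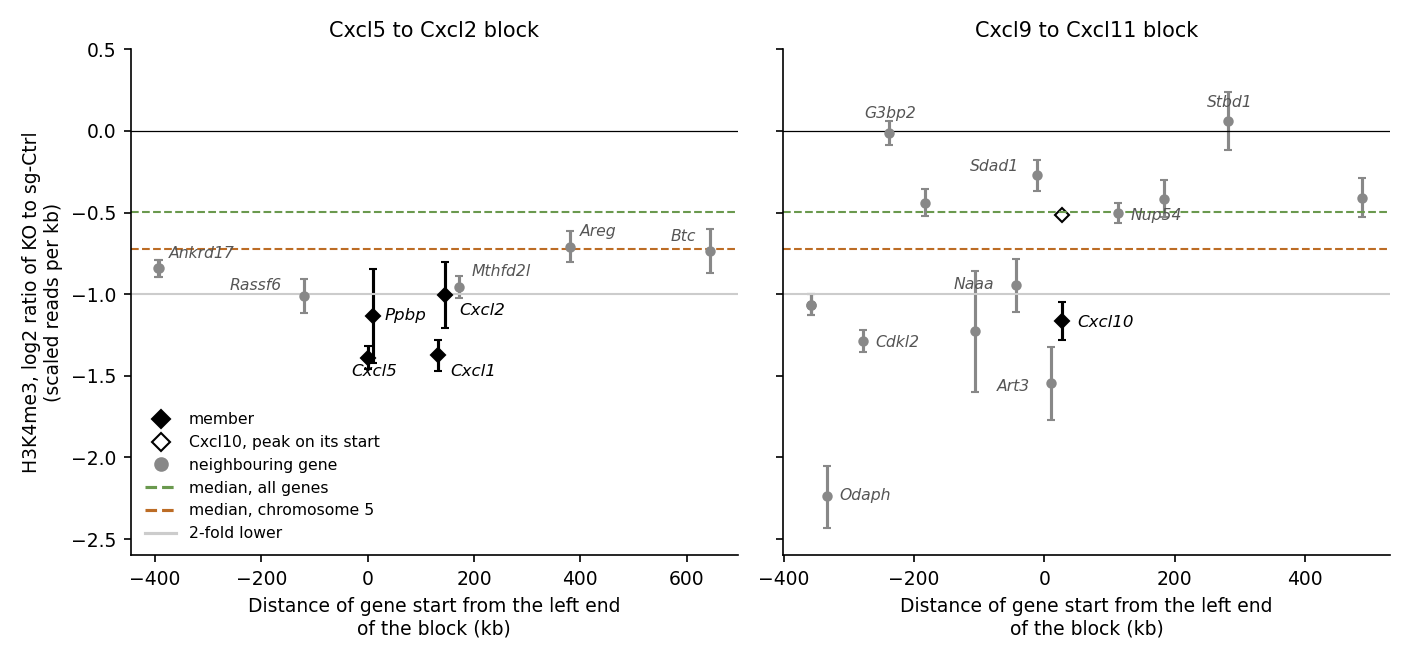
H3K4me3 log2 ratio of KO to sg-Ctrl, in scaled reads per kb, for members (black diamonds) and neighbouring genes (grey) against distance in kb from the left end of each block, with 95% counting intervals (not drawn for the open diamond, the peak on the Cxcl10 start). Dashed lines are the medians of all genes (-0.50) and of chromosome 5 (-0.72). On this scale Cxcl5 and Cxcl1 lie below their neighbours, and the neighbours of Cxcl10 spread from -2.24 to 0.06.

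H3K27me3 was listed on Cxcl9 and Cxcl11 alone among the members. Of the 10 genes, 2 had an H3K27me3 peak in each list, near the 26.8% and 27.5% of all 18571 genes in sg-Ctrl and KO. The 7 genes around Cxcl5 to Cxcl2 had none in either. The nearest listed peak was 171 kb from Cxcl5 in sg-Ctrl, at Albfm1, and 200.3 kb away in KO, at Afm. In the other block Cxcl9 and Cxcl11 had a peak in both lists, and Cxcl10 lay between peaks, 5.64 kb from the nearest in sg-Ctrl and 2.64 kb in KO. The peak over Cxcl9 covered the whole gene, 92313001 to 92331000 with 519 reads (475 to 566) in sg-Ctrl and 92315001 to 92331000 with 1089 (1025 to 1156) in the deeper KO library. Its folds over IgG were 2.49 and 1.88, its levels 34.1 and 25.4 scaled reads per kb, and its log2 ratio -0.42 (-0.57 to -0.27). The peak over Cxcl11, also listed for Art3, held 243 reads over 12 kb in the sg-Ctrl list and 458 over 8 kb in the KO list, with folds of 2.26 and 2.67, levels of 23.9 and 21.4 and a log2 ratio of -0.16 (-0.39 to 0.07), an interval that includes no change. Both lay within the middle 90% of all 7784 sg-Ctrl peaks met by a KO peak, which ran from -0.71 to 0.53.

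In the 500 kb on either side, listed H3K27me3 peaks covered less in KO. Around Cxcl5 to Cxcl2 they covered 229 kb in 4 peaks in sg-Ctrl and 172 kb in 3 peaks in KO, a ratio of 0.751, with mean levels of 66.6 and 54.9 scaled reads per kb. The widest lay over Alb, Afp and Afm, the albumin family genes of liver, from 90373001 to 90533000 in sg-Ctrl, and was listed as 2 peaks in KO. Albfm1 (a 3 kb peak and part of a 36 kb peak shared with Afm, of which KO listed 16 kb on Afm) and Btc (a 30 kb peak), the gene of the EGF receptor ligand betacellulin, had entries in the sg-Ctrl list alone. Around Cxcl9 to Cxcl11 the covered length was 181 kb in 11 peaks and 135 kb in 8 peaks, a ratio of 0.746, with levels of 32.0 and 26.1. The genes there were Cxcl9, Cxcl11, Art3, Fam47e, Ccdc158 and Shroom3, each with a peak in both lists. Within the block itself 23.0 kb were covered in sg-Ctrl and 26.0 kb in KO. The ratio of covered length was 0.885 over chromosome 5 and 1.19 over all chromosomes. The depth of the KO library was 3.16 times that of sg-Ctrl, and its effect on covered length in each region was not tested. Peaks away from gene bodies are not in the lists.

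NUP210 peaks in sg-Ctrl cells were listed on 7 of the 10 genes, against 33.9% of all 18571, but from only 4 distinct peaks close to the IgG level. The peak over Ppbp, Pf4 and the end of Cxcl5 (90761001 to 90784000) held 523 reads (479 to 570) and was 1.29-fold over IgG, with an FDR given by the authors of 3.3e-08. That on Cxcl2 was 1.26-fold (449 reads, FDR 2.4e-06), and its left border lay 880 bp past the end of Cxcl1, which had none. The peak over Cxcl15 and the end of Cxcl3 was 1.14-fold (579 reads, FDR 0.0015). On Cxcl9 the peak was 1.01-fold (202 reads, FDR 0.47), so that 6 of the 7 genes had a peak with an FDR of at most 0.05, against 79.9% of the 6290 genes listed for NUP210. Cxcl10 and Cxcl11 had none. The median fold of all NUP210 peaks was 1.19, and the member peaks stood above 17.1% to 67.5% of them.

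NPC peaks were listed on the 7 genes from Cxcl5 to Cxcl2 and on none of the other block, against 30.8% of all 18571 genes. They were 3 wide peaks with folds of 0.821 over Cxcl5 and Ppbp, 0.864 over Pf4, Cxcl3 and Cxcl15, and 1.01 over Cxcl1 and Cxcl2, and 0 of the 7 genes had one with an FDR of at most 0.05, against 65.2% of the 5715 genes listed for NPC. The median of the list was 1.10, and 21.8% of its peaks were below the scaled IgG level. Both a NUP210 and an NPC entry were listed for 6 genes, but the share of all genes with both was not counted, so this number says nothing particular about the cluster. Since most of these peaks span several genes, the entries are not independent.

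**Figure D5:**
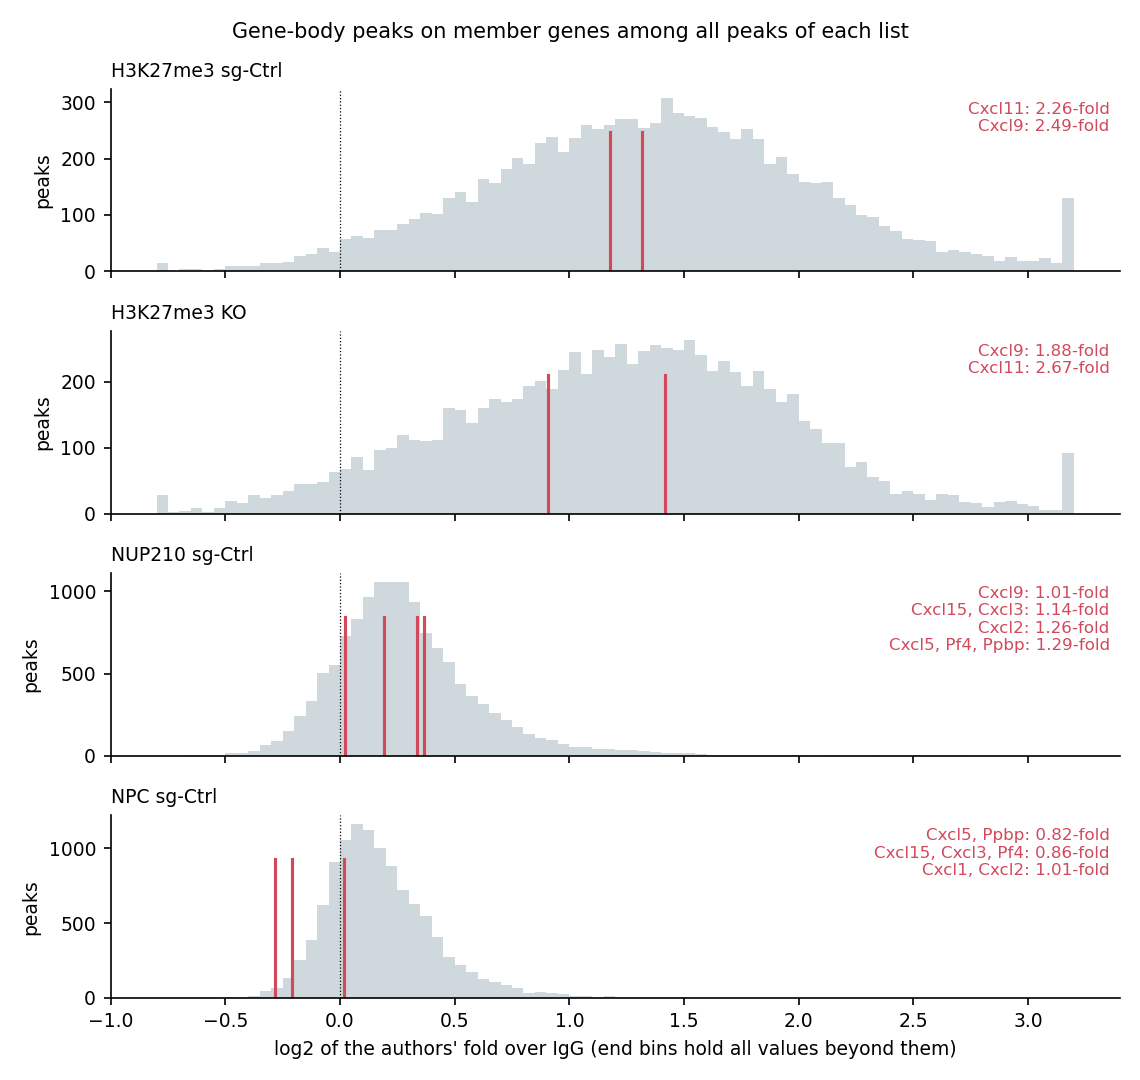
Peaks of each gene-body list by log2 of the authors' fold over IgG (grey bars, number of peaks per bin), with red lines at the peaks on member genes, named with their folds. H3K27me3 peaks of Cxcl9 and Cxcl11 sit in the middle of their lists, and NUP210 and NPC peaks on members lie between 0.821-fold and 1.29-fold, around the dotted line at equal ChIP and IgG.

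Of 13 other CXC ligand and receptor genes, 3 had an H3K4me3 peak in both lists and 0 were past 2-fold per kb of peak, with a median log2 ratio of -0.41. By total scaled reads, without the peak width, 2 of the 3 were 2-fold lower, against the 7.28% of all genes given above, with a median of -1.06. Cxcl16, a membrane-bound ligand, was at 0.30 (0.24 to 0.36), from 508 to 625 scaled reads per kb, but its KO peak was 4.2 kb wide against 9.4 kb, and in scaled reads the direction turned, to -0.86 (-0.93 to -0.80). Ackr3, the scavenging receptor of Cxcl12 listed as Cxcr7, was at -0.84 (-0.91 to -0.78), from 1008 to 562, and at -1.06 (-1.12 to -0.99) in scaled reads. Cxcr3, the receptor of Cxcl9, Cxcl10 and Cxcl11, was at -0.41 (-0.55 to -0.28), from 225 to 169, and at -1.22 (-1.35 to -1.09) in scaled reads. Cxcr2, the receptor of the ELR ligands, had no H3K4me3 peak and a NUP210 peak of 1.09-fold (FDR 0.23). Cxcl13, a B-cell attractant, had an H3K27me3 peak in both lists, with folds of 2.19 and 1.62, and the other 8 had no entry in any list.

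The genes of chromosome 5 most like Cxcl1, by the distance between pairs of log2 levels in sg-Ctrl and KO over 753 genes with at least 100 reads, were Pop7, Rnf32, Hps4, Srrd and Ufsp1. Their log2 ratios ran from -1.37 for Pop7, from 541 to 209 scaled reads per kb, to -1.26 for Hps4 and Srrd, which share a peak. The likeness rests on 1 library per condition.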

How the data were processed

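ChIP-seq of 4T1 cells, cultured for 48 h, was analysed from 6 peak lists. Peaks were called by the authors with SICER, each library against its IgG control, and per peak the authors deposited raw counts of ChIP and IgG reads, a p-value, an FDR (q-value) and the fold over IgG as a ratio corrected for library size. Peak widths are multiples of 200 bp in the H3K4me3 lists and of 1000 bp elsewhere. The labels name Trimmomatic, STAR, Picard and Bowtie2, without versions, and the builds mm9, mm10 and NCBIM37 for the series as a whole. Positions follow the lists, which match GRCm38. Depth is unknown beyond reads in peaks, from 5866175 for NPC to 26811061 for H3K27me3 in KO.

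The ratio of ChIP to IgG library size was recovered from the counts and fold of each list. Because the 575 H3K4me3 and 832 H3K27me3 peaks with equal borders had equal IgG reads in sg-Ctrl and KO, the ratios of a mark share 1 scale. Scaled reads are reads divided by that ratio. For H3K4me3 the peak with the highest scaled reads per kb stood for a gene, over all genes with a peak in both lists. Intervals are exact Poisson for counts and exact conditional binomial for ratios. Symbols were mapped by RefSeq transcript accession. Groups were taken from the labels. Neighbours named are the 3 nearest genes on each side with an H3K4me3 peak in either list and the genes with H3K27me3 in the flanks, with the CXC ligand and receptor genes that have a peak. The members and lists were chosen with earlier results of these data known. The restriction to peaks on the gene start and the shared kB form were added after the values were seen. No RNA-seq sample (4 in the series) was analysed, and the 3 IgG samples entered only through IgG reads in the lists. The H3K4me3 ratios, calls and intervals were tested on simulated counts at fixed peak borders, and the other steps were not. The tools were pandas 2.3.3 and numpy 2.4.6 under Python 3.11.15, with scipy 1.17.1 for the intervals and matplotlib 3.10.9 for the plots.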

Additional observations from a re-analysis of the deposited data

How the results depend on the processing

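The number of genes at least 2-fold lower in H3K4me3, 5 in the report, was 0 when ratios were scaled by reads of shared peaks, centred on the median of all genes or centred on that of chromosome 5. It was 3 by total scaled reads (7.28% of all genes), 2 by fold over IgG (17.6%), and, in alternatives chosen after seeing the data, 3 with peaks covering the start and 2 by the total scaled reads of those peaks (7.22%). Across the alternatives for single members, the share of all genes below 0 ran from 28.6% (centred on chromosome 5) to 89.3% (peaks covering the start). Of the 43 alternative values for single members, which re-use the same 5 genes, 41 stayed below 0. The exceptions were Cxcl2 by fold over IgG, at 1.88, where the KO peak on the start holds 5 IgG reads and the sg-Ctrl peak 119, and Cxcl10 by its widest peak, at 0.28, where the peak on the start stands for sg-Ctrl and the upstream peak for KO. Among the 43, the centred and shared-peak scales were applied to the highest peak only. The peak on the Cxcl10 start, at 0.21 relative to the chromosome 5 median, is therefore not counted there. When a peak had to reach 2-fold over IgG, the KO list of H3K27me3 was left with 1 member. The NUP210 and NPC lists were left with 0. The median fold of all peaks was 2.39 for H3K27me3 in KO, 1.19 for NUP210 and 1.10 for NPC. Most NUP210 and NPC peaks, on whichever gene, therefore fell short of that cut too. With an FDR of at most 0.01 NPC was left with 0 members. The share of all genes passing either cut was not counted. Neighbour medians of -0.84, -0.73 and -0.84 (around Cxcl5 to Cxcl2, around Cxcl9 to Cxcl11, and both) were -0.96, -0.44 and -0.61 within 250 kb, and -0.42, -0.30 and -0.42 scaled by shared peaks. In scaled reads without the peak width, added after seeing the data, the neighbour medians were -0.92, -0.73 and -0.88, and Cxcl16 turned from 0.30 to -0.86. The ratios of H3K27me3 covered length in windows with flanks stayed below 1, from 0.607 to 0.793, while that of the Cxcl9 to Cxcl11 block without flanks was 1.13. No paired analysis was possible because each condition has 1 library. With 1 library each, the spread between cultures is unknown and intervals cover counting error only.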
